A study of Mus musculus with 28 samples.

Results

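The Rab small GTPases were followed in ribosome-bound mRNA of mouse retinal ganglion cell (RGC) axons, of the background of the same purification, and of the retina. The members are all genes whose symbol is Rab followed by a number and at most a letter from a to d. This pattern found 57 genes among the 23995 genes listed in the files, and all 57 matched a gene of the mm10 annotation, Rab1 through its current symbol Rab1a. The pattern reads symbols only.

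Ribosomes were tagged by crossing RiboTag mice, in which Cre recombination replaces Rpl22 with a hemagglutinin-tagged copy, with Pax6-alpha-Cre mice on a C57BL/6 strain. Cre is active for a short time in progenitors of the peripheral retina, so RGCs of that region and other retinal cells carry the tag, while no cells that reside in the superior colliculus (SC) were found to. The Cre-positive SC therefore gives tagged ribosomes from RGC axons, the SC of Cre-negative littermates (RiboTag allele, no Cre) gives what the antibody and beads bind without a tag, and the retina group comes from whole Cre-positive eyes. Each of these 3 sources was taken before birth (E17.5), after birth (P0.5 and P7.5) and from adults, with 2 replicates, and 6 SCs or 3 eyes were pooled for a library. A further 4 adult Cre-positive libraries, from SC and retina with and without in vitro ribosome run-off, had no replicates.

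Rab proteins are molecular switches of membrane traffic. When loaded with GTP by an exchange factor, a Rab sits on the membrane of its compartment and recruits effectors such as motors, tethers and coats, and a GTPase-activating protein then turns it off. In axon terminals, Rab3 and Rab27 proteins mark synaptic and secretory vesicles. In cells in general, Rab1, Rab2 and Rab6 act between the ER and the Golgi, and Rab8 and Rab10 carry vesicles to the plasma membrane. Rab5 marks early endosomes, Rab4 and Rab11 recycling endosomes and Rab7 late endosomes.

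All Rabs are held on membranes by lipid chains attached to cysteines near the end of the protein, and the coding ends of the members that lead the results are printed to show how these differ. Each line gives the last 30 bases of the longest annotated coding sequence (GENCODE, mm10), 5′ to 3′ and stop codon included, with in-frame cysteine codons in capitals.
Rab3a: gcgccacctcatcaggatTGTgccTGCtga
Rab3b: cctctgctgcagcagaacTGCtctTGTtag
Rab27a: gagaaggagaaggggttgTGTggcTGTtga
Rab4b: gccgtggcccctcagcccTGTggcTGCtga
Rab43: attgcggagagctggggcTGTgggTGCtga
Rab1: gtcaagcagtcaggtggaggcTGCTGCtaa
Rab1b: gtgaagcctgctagcggtggcTGCTGCtag
Rab31: agcttgcaagccagccgtcggTGCTGCtga
Rab11a: ccaaaggtgcagTGCTGTcagaacatctaa
Rab5c: gccagccggagccagTGCTGCagcaactga
Rab8a: accagcttcttccggTGCagtctcctgtga

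Rab3a, Rab3b, Rab27a, Rab4b and Rab43 ended in a cysteine codon, another codon and a cysteine codon, as 19 of the 55 members with a sequence read here did. Rab1, Rab1b and Rab31 ended in a pair of cysteine codons, as 13 did. In Rab11a and Rab5c the pair stood further in, and Rab8a was among the 5 members with a single cysteine codon in this stretch. On mm10 the Rab1b end lies at chr19:5100378-5100407 on the minus strand, the Rab11a end at chr9:64716849-64716878 on the minus strand and the Rab3a end at chr8:70758059-70758088 on the plus strand, each within a single coding exon. The longest exact run shared by a transcript of Rab1 and one of Rab1b was 38 bases, by Rab11a and Rab11b 14, and by Rab3a and Rab3b 17.

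Values are FPKM, which count the fragments of a gene relative to its transcript length and to the mapped fragments of the library, so levels of different genes may be compared. A value of 0 is given here as listed at 0, because between 1 and 8 of 10 genes that every cell uses (Gapdh, Hprt, Tbp and the like, chosen after the data were seen) were also at 0 in each library. Replicates were alike at P0.5 (r on log2 values 0.916 to 0.945 across genes). They were less so elsewhere, down to 0.176 for the E17.5 Cre-negative SC, 0.385 for the E17.5 Cre-positive SC and 0.39 for the adult Cre-negative SC. The files hold no depth; the spacing of low values gave an estimate for 18 libraries, by which 3 fragments on a Rab transcript of median length correspond to 0.11 to 3.2 FPKM, and none for the P0.5 SC libraries. Of 10 RGC markers, Rbpms, Thy1, Nefh and Sncg were listed at 0 in both P0.5 Cre-positive SC libraries, and the summed marker level (110.6 to 301 FPKM) overlapped that of the Cre-negative SC (199.9 to 758 FPKM). In the P0.5 retina 8 or 9 of these markers were above 0.

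Between 6 and 38 of the 57 Rab genes were above 0 in a library. Only Rab3b was above 0 in all 24, and Rab1 in 23, Rab27a and Rab31 in 22 and Rab3a in 20. Another 10 members were listed at 0 throughout: Rab17, Rab19, Rab25, Rab27b, Rab32, Rab37, Rab39, Rab40b, Rab42 and Rab44. The 4 highest Rab genes of a library held between 59.6 and 99.9% of its summed Rab FPKM. Rab3b, Rab31, Rab1 and Rab27a made up most of the ranks at the top, in the Cre-negative SC as in the Cre-positive SC and the retina.

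**Figure D1:**
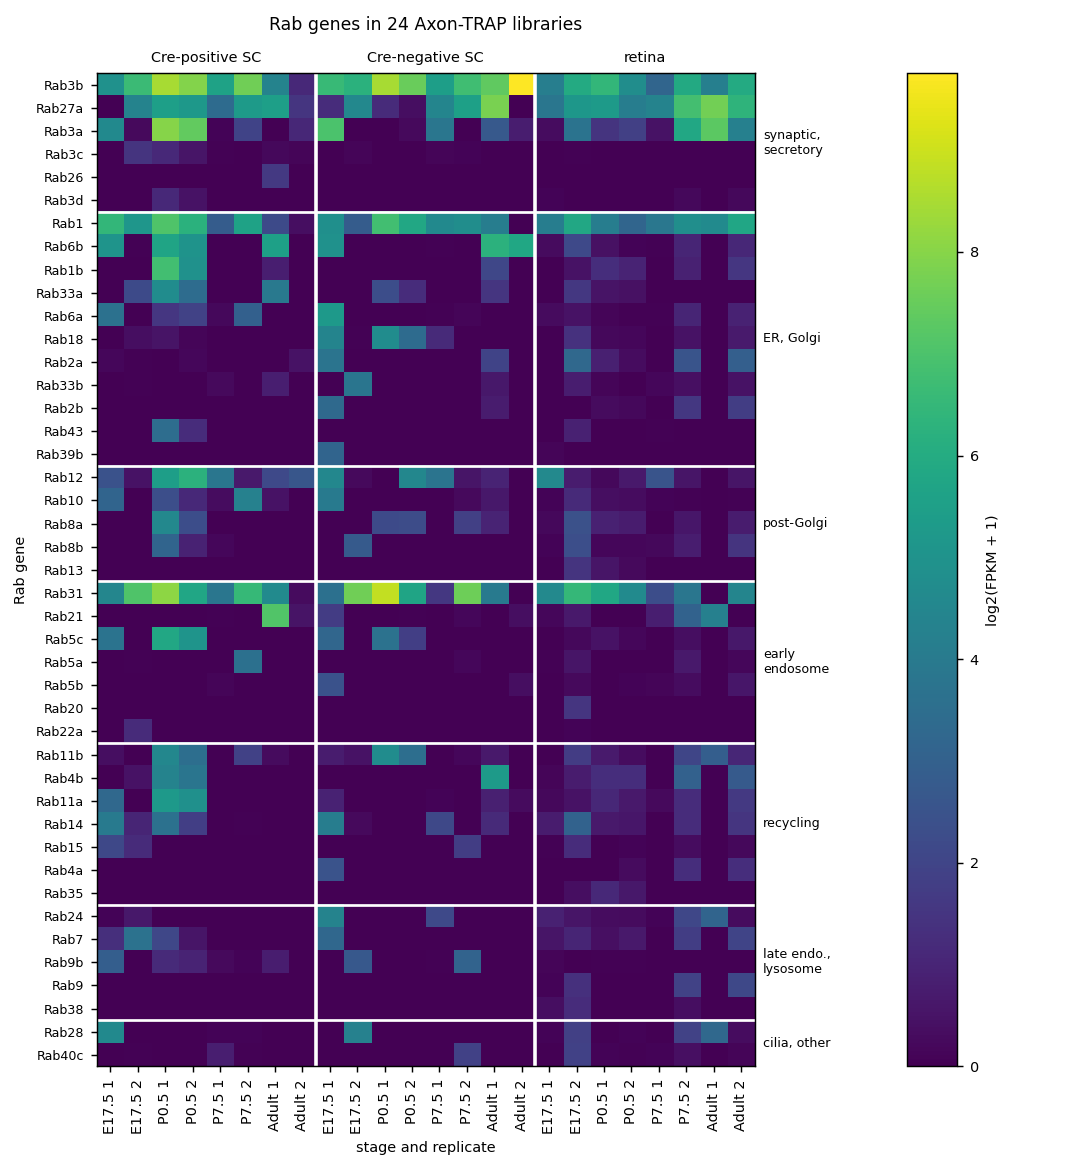
Levels of the 43 Rab genes that reached 1 FPKM in any library, as log2(FPKM + 1), by library (columns, with stage and replicate number) and grouped by role (rows). Rab3b, Rab27a, Rab1 and Rab31 are high in most columns of all 3 sources, while most of the other members are seen in few libraries. At P0.5, 24 and 25 Rab genes were above 0 in the Cre-positive SC and 9 and 12 in the Cre-negative SC, beside 19.3 and 20.5% and 9.01 and 10.6% of all genes.

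The Cre-positive and Cre-negative SC were compared to ask which Rab mRNAs were bound to tagged axonal ribosomes beyond the background. At P0.5, 5 Rab genes were higher in the Cre-positive SC: Rab1b of ER-to-Golgi traffic, Rab43 of the Golgi, Rab3a of synaptic vesicles, and Rab11a and Rab4b of recycling endosomes. Rab18, a Rab of the ER and lipid droplets, was lower. These were calls by limma on log2(FPKM + 1) with adjusted p under 0.05, among the 28 Rab genes that reached 1 FPKM in at least 2 SC libraries. Across all 5983 genes tested, 28.1% were called higher and 4.35% lower, so the share of Rab genes called higher, 17.9%, lay below that of all genes. The median log2 difference was 1.53 over the 28 Rab genes and 0.78 over all genes tested.

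By role, 2 of the 8 ER and Golgi Rabs tested were higher and 1 lower, with a median log2 difference of 2.03, 2 of 5 recycling Rabs were higher (median 2.72) and 1 of 4 synaptic and secretory Rabs (2.70). None of the 4 post-Golgi Rabs (1.88), 3 early endosomal Rabs (-0.04), 3 late endosomal Rabs (1.07) or the single member of the ciliary and other Rabs passed (limma). Members that did not reach 1 FPKM in 2 SC libraries were not tested, among them 4 of the 7 early endosomal, 3 of the 6 late endosomal and 5 of the 6 ciliary and other Rabs.

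Rab1b had 111 and 29.5 FPKM in the 2 Cre-positive SC libraries of P0.5 and was listed at 0 in both Cre-negative ones. The log2 difference was 5.87 ± 0.79 (SE; adjusted p = 0.00019, limma). Rab11a, which recycles membrane to the cell surface, had 37.4 and 28.8 FPKM against 0 and 0, a log2 difference of 5.08 ± 0.91 (adjusted p = 0.0013, limma). The groups did not overlap for either gene, and how many of all genes do the same was not counted. Since the control values were 0, the size of these differences depends on the 1 FPKM added before taking logs.

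Rab3a, the main Rab of synaptic vesicles, had 249.6 and 167 FPKM in the Cre-positive SC of P0.5 against 0 and 0.199, the largest log2 difference among the members at 7.55 ± 2.23 (adjusted p = 0.024, limma). It was also the second highest Rab of these axon libraries. Mpv17l2 lies antisense to part of its exons, and whether the libraries kept strand is not given in the sources used here. Rab4b had 19.5 and 12.7 FPKM against 0 and 0 (log2 difference 4.07 ± 1.26, adjusted p = 0.03), and Rab43 had 10.3 and 1.34 FPKM against 0 and 0 (2.36 ± 0.55, adjusted p = 0.0067; both limma). Both share exon sequence on the same strand with another annotated gene, Gm21983 and Gm45140, so their reads cannot be assigned with certainty. The filter let Rab43 in only through the 2 libraries in which it is high, and Rab1b, Rab11a and Rab4b reached 1 FPKM in only 1 SC library besides these 2, which favours a difference. Without the filter, Rab1b, Rab11a, Rab3a and Rab43 were still called and Rab4b was not. Rab18 went the other way, with 0.418 and 0.0948 FPKM against 26.1 and 9.6 (log2 difference -3.77 ± 1.14, adjusted p = 0.027, limma).

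Several of the Rabs that were highest in the axon libraries were also high in the background. Rab3b, the Rab3 paralog, had 360.1 and 243 FPKM in the Cre-positive SC and 358 and 184.5 in the Cre-negative SC of P0.5. The gene 8030443G20Rik lies antisense to part of the Rab3b exons. Rab31, an endosomal Rab of the Rab5 group, had 275 and 54.2 against 459 and 51.5, and Rab1, which acts in transport from the ER, had 132 and 73.6 against 109.8 and 56.9. For each of these 3 genes the groups overlapped and the adjusted p was 1.0 (limma; log2 differences of 0.20 ± 1.30, -0.33 ± 2.49 and 0.31 ± 1.51). Rab11b was likewise in both, with 22.0 and 10.4 FPKM against 25.7 and 10.5, unlike its paralog Rab11a.

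Other members were above the background in every P0.5 library without passing the test. Rab27a, which tethers secretory granules, had 43.9 and 35.7 FPKM against 1.32 and 0.271 (log2 difference 4.56 ± 2.45, adjusted p = 0.21). Rab6b, the neuronal Golgi Rab, had 50.4 and 31.2 against 0 and 0 (5.34 ± 2.09, adjusted p = 0.079). Rab5c of early endosomes had 56.6 and 32.3 against 11.8 and 2.54 (2.70 ± 1.31, adjusted p = 0.16), and Rab12 had 42.9 and 75.8 against 0 and 21.6 (3.61 ± 1.91, adjusted p = 0.2; all limma). The groups did not overlap for these 4 genes, but the spread over the SC libraries of all stages was wide. How many of all genes had groups without overlap was not counted. At an unadjusted p under 0.05 (limma) there were 8 of the 28 Rab genes, beside 39.2% of all genes. Of the remaining textbook markers, Rab10 had 4.11 and 1.16, Rab14 11.3 and 2.51, Rab6a 1.92 and 2.84 and Rab7 3.25 and 0.476 FPKM in the Cre-positive SC, against 0 in both Cre-negative libraries, and none passed. Rab3c, a vesicle Rab like Rab3a, had 1.18 and 0.48 FPKM against 0 and 0 and Rab8a 22.7 and 3.95 against 3.55 and 3.86, and neither passed. Rab5a, Rab4a and Rab2a were at 0.117 FPKM or less in all 4 libraries. Rab10os, Mrpl48, Gm5577 and Pp2d1 lie antisense to exons of Rab10, Rab6a, Rab7 and Rab5a.

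**Figure D2:**
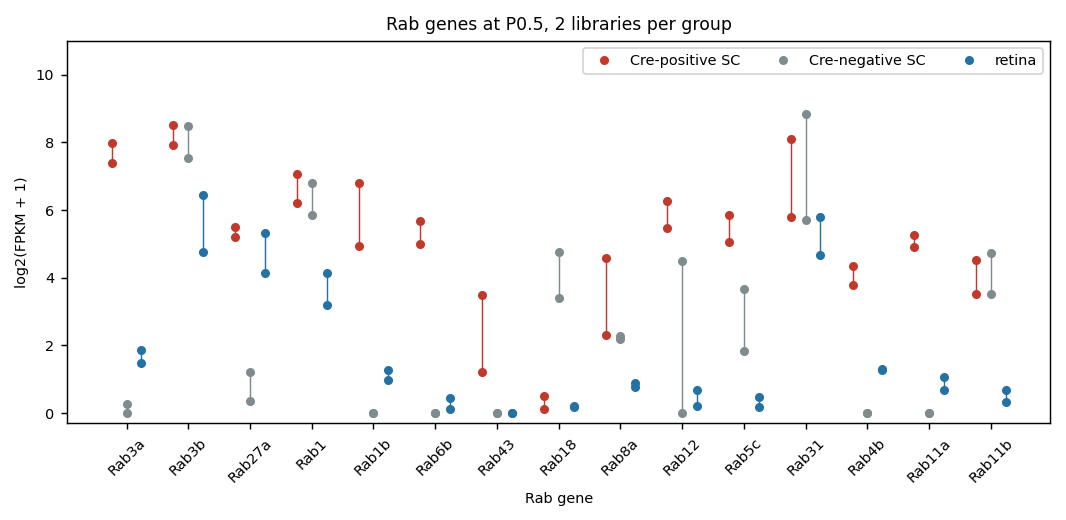
FPKM of 15 Rab genes at P0.5 on a log2(FPKM + 1) axis, with a point for each of the 2 libraries of the Cre-positive SC, the Cre-negative SC and the retina and a line joining the pair. Rab1b, Rab6b, Rab43, Rab4b and Rab11a lie at 0 in both Cre-negative libraries, Rab18 is higher in the Cre-negative SC, and the 2 SC groups overlap for Rab3b, Rab1, Rab31 and Rab11b.

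Only Rab1b and Rab11a stayed past the threshold in each of the other analyses of this comparison. Without Cre-positive replicate 1 these were the only 2 genes called higher, and 3 were called without Cre-positive replicate 2 (Rab1b, Rab11a and Rab8b), without Cre-negative replicate 1 and without Cre-negative replicate 2 (each time Rab1b, Rab11a and Rab43). Rab18 was called only with Cre-negative replicate 2 left out, among these 4. A fit to the 4 libraries of P0.5 alone, which drops the spread of the other stages, called 10 higher and 1 lower of the 19 Rab genes it tested, with 59.3% of all its genes called higher. It added Rab27a, Rab6b, Rab6a, Rab10, Rab14 and Rab33a, and lost Rab43. Of these, Rab6b, Rab6a, Rab10 and Rab14 were at 0 in both Cre-negative libraries and so entered that fit only through the Cre-positive ones. So did Rab1b, Rab11a and Rab4b, at 0 in both, and Rab3a, at 0.199 FPKM or less. The calls of these genes in that fit are therefore no separate support. Among markers of other cells, the summed astrocyte level was 51.9 to 60.8 FPKM in the Cre-positive and 15.9 to 38.3 in the Cre-negative SC of P0.5 (3 or 4 of 6 above 0, Gfap and Aqp4 at 0 in all 4 libraries). The microglial sum was 0 against 43.2 to 77 (1 of 5, with Cx3cr1, Csf1r and Tmem119 at 0). The part of these cells in the Rab differences was not tested.

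No Rab gene passed the test between the Cre-positive and Cre-negative SC at the other ages (limma). At an unadjusted p under 0.05 there was 1 of E17.5, none of P7.5 and 2 adult ones, beside 6.07%, 1.4% and 3.08% of all genes. Across all genes 0.468% were called higher and 1.1% lower at E17.5. None were called for P7.5, and in adult tissue 0.0836% were higher and 0.0669% lower. The replicates differed widely at these stages. At E17.5, Rab3a had 23.9 and 0.183 FPKM in the Cre-positive and 128 and 0 in the Cre-negative SC. Rab15, a recycling Rab, had 3.38 and 1.31 FPKM against 0 and 0 (log2 difference 1.67 ± 0.50, adjusted p = 0.23, limma). In the adult, Rab27a had 44.4 and 1.82 FPKM against 221 and 0, and Rab3b 19.8 and 1.16 against 163.9 and 863 (-5.82 ± 1.30, adjusted p = 0.26, limma). Rab21, an endosomal Rab, was the highest member in the adult Cre-positive SC on the strength of a single library, with 136 and 0.441 FPKM, and without adult Cre-positive replicate 2 it was called higher. Leaving out E17.5 Cre-positive replicate 1 or 2 led to a call for Rab3c or Rab11a, leaving out E17.5 Cre-negative replicate 2 to lower calls for Rab18, Rab24 and Rab2a, and leaving out adult Cre-negative replicate 2 to a lower call for Rab4b.

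The stages of the Cre-positive SC were then compared to follow the Rab mRNAs from axon elongation (E17.5) through branching (P0.5) and pruning (P7.5) to the mature projection. Rab genes of several compartments rose from E17.5 to P0.5 and fell again by P7.5. From E17.5 to P0.5, 6 of the 28 Rab genes tested rose (Rab1b and Rab43 of ER and Golgi, Rab8a of post-Golgi vesicles, and Rab11a, Rab11b and Rab4b of recycling endosomes) and Rab15 fell, while 25.1% of all genes rose and 1.81% fell. From P0.5 to P7.5, 9 Rab genes fell and none rose (limma), against 29.2% of all genes falling and 0.501% rising. The 9 were the 6 that had risen, with Rab3a, Rab5c of early endosomes and Rab33a, a Golgi Rab linked to autophagy. These shares were near those of all genes, and the comparisons share the 2 P0.5 libraries with each other and with the comparison of Cre. Rab43, which is in both counts, entered the tests only through the P0.5 Cre-positive libraries. In bulk samples, fewer axons and less ribosome-bound RNA per axon cannot be told apart. Markers of other cells moved over the same stages: in the Cre-positive SC the summed oligodendrocyte level went from 0.0601 to 2.72 FPKM at E17.5 to 84.7 to 86.6 at P0.5 and 26.6 to 63.8 at P7.5 (1 or 2 of 7 above 0), and the astrocyte level from 27.8 to 37.0 through 51.9 to 60.8 to between 300.3 and 672 FPKM (3 to 5 of 6). Their part in these changes was not tested.

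Rab1b had 0 and 0 FPKM at E17.5, 111 and 29.5 at P0.5, and 0 and 0 at P7.5, with log2 changes of 5.87 ± 0.79 and -5.87 ± 0.79 (adjusted p = 0.00021 both times, limma). Rab8a, which docks Golgi-derived vesicles at the plasma membrane, had 22.7 and 3.95 FPKM at P0.5 and 0 in all 4 Cre-positive libraries of E17.5 and P7.5 (3.44 ± 0.81 and -3.44 ± 0.81, adjusted p = 0.0085 and 0.0082, limma), while the Cre-negative SC of P0.5 had 3.55 and 3.86. Both genes were thus listed at 0 in every E17.5 and P7.5 library of the Cre-positive SC. Rab11a had 8.9 and 0 FPKM at E17.5, 37.4 and 28.8 at P0.5 and 0 and 0 at P7.5, so that it too was highest in the P0.5 libraries (3.43 ± 0.91 and -5.08 ± 0.91, adjusted p = 0.016 and 0.0015, limma). Rab5c went from 12.1 and 0 through 56.6 and 32.3 to 0 and 0 FPKM, and its fall by P7.5 passed the test (-5.45 ± 1.31, adjusted p = 0.0089) where the rise did not (adjusted p = 0.069; both limma).

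Rab4b and Rab43 were listed at 0.392 FPKM or less in the Cre-positive SC outside P0.5, and the changes into and out of P0.5 were 3.83 ± 1.26 and -4.07 ± 1.26 for Rab4b and 2.35 ± 0.55 and -2.36 ± 0.55 for Rab43 (log2; adjusted p between 0.0073 and 0.045, limma). Rab43 reached 1 FPKM in no SC library besides the P0.5 Cre-positive ones, and Rab4b in 1, which favours a difference. Rab33a had 0 and 3.63, then 25.9 and 9.81, then 0 and 0 FPKM, and fell from P0.5 to P7.5 (-4.09 ± 1.23, adjusted p = 0.029, limma). Rab3a had 23.9 and 0.183 FPKM at E17.5, 249.6 and 167 at P0.5 and 0.0682 and 2.86 at P7.5, a log2 change of -6.66 ± 2.23 from P0.5 to P7.5 (adjusted p = 0.045, limma). Rab15, in contrast, was above 0 in both Cre-positive libraries of E17.5 and at 0 in those of the later stages (-1.67 ± 0.50 from E17.5 to P0.5, adjusted p = 0.029, limma). Between P7.5 and the adult none of the 28 Rab genes passed (limma; 2 at an unadjusted p under 0.05, beside 2.14% of all genes), and 0.0836% of all genes rose.

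The Cre-negative SC served as the background of these changes. Rab11b rose there from 0.659 and 0.408 FPKM at E17.5 to 25.7 and 10.5 at P0.5 (log2 change 3.52 ± 0.81, adjusted p = 0.026) and fell to 0 and 0.127 at P7.5 (-4.05 ± 0.81, adjusted p = 0.014; both limma), beside changes of 3.84 ± 0.81 and -3.07 ± 0.81 in the Cre-positive SC. Its course was thus measured without tagged ribosomes as well, although Rab11b lost these calls in the Cre-negative SC without P0.5 Cre-negative replicate 1 or replicate 2, without P7.5 Cre-negative replicate 1 or replicate 2 for the fall, and with 0.1 FPKM added. Gm17251 lies antisense to it. Across all genes 3.98% rose and 2.41% fell from E17.5 to P0.5 in the Cre-negative SC, 0.234% rose and 4.6% fell by P7.5, and 0.0501% rose from there to the adult, where no Rab gene passed (limma; 1 at an unadjusted p under 0.05, beside 4.31% of all genes). Without E17.5 Cre-negative replicate 2, 5 Rab genes fell from E17.5 to P0.5 in the Cre-negative SC (Rab24, Rab2a, Rab3a, Rab6a and Rab7), and without E17.5 Cre-negative replicate 1 Rab18 rose and Rab8b fell. Rab1b, at 0 in the Cre-negative SC of E17.5, P0.5 and P7.5, differed from the background in its change over both intervals (interaction of Cre and stage 5.87 ± 1.12, adjusted p = 0.0029, and -5.87 ± 1.12, adjusted p = 0.0033, limma), as did Rab11a (3.89 ± 1.28, adjusted p = 0.046, and -5.13 ± 1.28, adjusted p = 0.015, limma). Rab43 was also past the threshold from E17.5 to P0.5, but it had entered the test through the P0.5 Cre-positive libraries alone and lost this call without the filter. Across all genes 23.9% had a positive and 3.23% a negative interaction in the first interval and 2.74% a positive and 18.7% a negative one in the second, while 3 of the 28 Rab genes were positive in the first and 2 negative in the second. The interaction of Rab1b lost its call without P0.5 Cre-positive replicate 1 (adjusted p = 0.052 and 0.084), and it was past the threshold in the other analyses.

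**Figure D3:**
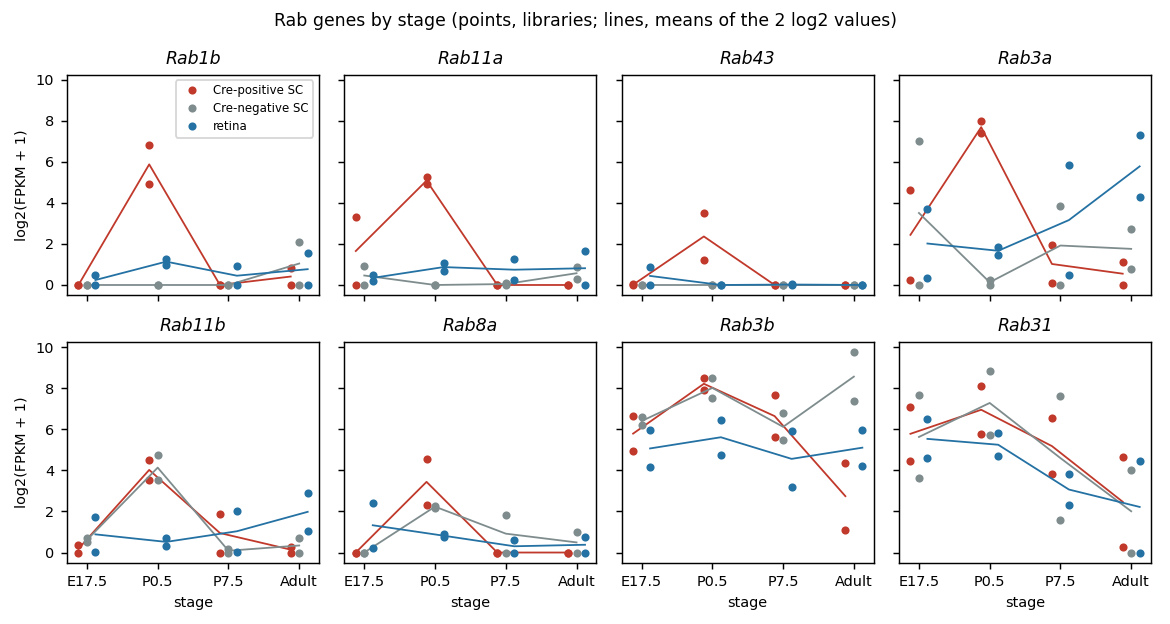
Levels of 8 Rab genes at the 4 stages, as log2(FPKM + 1), with points for the libraries of the Cre-positive SC, the Cre-negative SC and the retina and lines through the means of the pairs. The 2 P0.5 libraries of the Cre-positive SC hold the highest values of Rab1b, Rab11a, Rab43 and Rab3a among all libraries, those of both SC groups the highest of Rab11b, and Rab3b and Rab31 are high in all 3 sources at P0.5.

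The calls between stages rested on the P0.5 libraries. Without P0.5 Cre-positive replicate 1, only Rab1b rose from E17.5 and only Rab1b and Rab11a fell to P7.5. Without replicate 2, Rab1b and Rab8a rose, and these and Rab11a fell. Leaving out a P7.5 Cre-positive library left 5 (without replicate 1) or 6 (without replicate 2) of the 9 falls. Without E17.5 Cre-positive replicate 1 no Rab gene fell to P0.5, and without replicate 2 both Rab15 and Rab28 did.

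In the retina, where the same ribosomes were taken with the RGC cell bodies, no Rab gene passed the test between consecutive stages (limma, 21 Rab genes tested, none at an unadjusted p under 0.05), and at most 0.049% of all 4080 genes were called in a direction. Rab27a, Rab3b and Rab3a led in the older retina, with Rab27a at 13.3 and 34.8 FPKM at E17.5, 38.7 and 16.8 at P0.5, 19.7 and 114 at P7.5 and 204 and 79.5 in the adult. Rab3a had 0.245 and 12.2, then 1.76 and 2.64, then 0.4 and 56.0, and in the adult 154.5 and 18.2 FPKM. Replicates of a stage differed up to about as much as stages did. Rab31 had 23.0 and 88.2 FPKM at E17.5 and 0 and 20.6 in the adult.

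The Cre-positive SC and the retina were compared to set Rab mRNAs of the axon beside those of the whole eye. At P0.5, 10 of the 30 Rab genes tested were higher in the Cre-positive SC and none lower (limma). By role group they were Rab1b, Rab33a, Rab43 and Rab6b (ER and Golgi), Rab8a and Rab12 (grouped here as post-Golgi), Rab11a and Rab11b (recycling endosomes), Rab5c and Rab3a. The filter let Rab43 in only through the P0.5 Cre-positive libraries, in which it is high, and this favours a difference. Without the filter Rab43 was still called. Across all 6321 genes 32.7% were higher and 2.01% lower, so the Rab genes followed the share of all genes. The median log2 difference was 1.78 for the Rab genes and 1.10 for all genes, and median-ratio scaling moved the latter by -0.16. Rab5c had 56.6 and 32.3 FPKM in the axon libraries and 0.401 and 0.13 in the retina (5.12 ± 0.96, adjusted p = 0.0014, limma). Rab12 had 42.9 and 75.8 against 0.153 and 0.595 (5.42 ± 1.44, adjusted p = 0.012), Rab6b 50.4 and 31.2 against 0.369 and 0.0804 (5.06 ± 1.78, adjusted p = 0.045), and Rab3a 249.6 and 167 against 1.76 and 2.64 FPKM (6.02 ± 1.98, adjusted p = 0.035; all limma). The groups did not overlap for these genes, and how many of all genes do the same was not counted. Rab1b, at 111 and 29.5 against 1.44 and 0.986 FPKM, had the smallest adjusted p (4.73 ± 0.79, 0.00063, limma).

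Rab27a was not among them, with 43.9 and 35.7 FPKM in the Cre-positive SC and 38.7 and 16.8 in the retina. Of the 10 genes, Rab11b (10.5 to 25.7 FPKM), Rab12 (up to 21.6), Rab5c (2.54 to 11.8), Rab33a (1.37 to 3.89), Rab8a (3.55 to 3.86) and Rab3a (up to 0.199) were also above 0 in a Cre-negative SC library of P0.5. At P0.5 the summed lens level was 162 to 269 FPKM in the retina and at most 1.71 in the Cre-positive SC, the oligodendrocyte level 2.79 to 3.95 against 84.7 to 86.6, and the RGC level 1231 to 4043 against 110.6 to 301. Their part was not tested. SC libraries went through additional rounds of amplification, which cannot be told apart from the source here. The number of higher Rab genes was 2 without P0.5 Cre-positive replicate 1 (Rab1b and Rab5c), 5 without Cre-positive replicate 2, 4 without retina replicate 1 or retina replicate 2, and 4 with 0.1 FPKM added in place of 1. It was 15 of 18 in the fit to the 4 libraries of P0.5, which called 73.4% of all its genes higher. Members below 1 FPKM in both retina libraries, such as Rab5c, Rab12 and Rab6b, entered that fit only through the Cre-positive ones. The study compared axon and retina of the same animals without saying which libraries share them, and with replicate number as a block Rab3a and Rab6b lost their calls (adjusted p = 0.052 and 0.084, limma). Rab1b and Rab5c were called in every analysis of this comparison. Outside P0.5 none of the 30 passed (limma), with an unadjusted p under 0.05 for Rab15 at E17.5 and for Rab1 and Rab3a in adults (10.9% and 7.78% of all genes), beside 0.57% higher and 0.744% lower calls among all genes at E17.5, 0.0158% higher at P7.5 and 0.0949% higher in the adult. Without E17.5 Cre-positive replicate 2, Rab5c and Rab9b were called higher. Both adult differences were in the other direction, with Rab3a at 0 and 1.14 FPKM in the SC and 154.5 and 18.2 in the retina (-5.22 ± 1.99, adjusted p = 0.5, limma) and Rab1 at 3.58 and 0.293 FPKM in the SC and 24.2 and 53.0 in the retina (-3.92 ± 1.23, adjusted p = 0.33, limma).

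The proteins that prenylate, load, unload and read Rabs were taken as a list of 94 genes, of which 92 were in the files and 39 were tested in the SC. At P0.5, 15 of them were higher in the Cre-positive than in the Cre-negative SC and 2 lower, with a median log2 difference of 1.98 beside 0.78 for all genes, of which 28.1% were higher and 4.35% lower. They comprised 5 of 10 exchange factors tested, 3 of 10 GTPase-activating proteins, 6 of 14 effectors and 1 of 5 genes of prenylation and recycling. From E17.5 to P0.5 in the Cre-positive SC 19 rose and none fell, and from P0.5 to P7.5 20 fell and none rose (limma), beside 25.1% and 29.2% of all genes.

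Some of the regulators with the smallest adjusted p entered the test only through the group in which they are high, and their values are given without it. One was Rabenosyn-5 (Zfyve20), an effector of Rab4 and Rab5, with 0 and 0 FPKM in the Cre-positive and 25.0 and 14.9 in the Cre-negative SC. Madd, the exchange factor of Rab3 and Rab27, had 11.5 and 8.01 FPKM against 0 and 0, and Mon1a, part of the exchange factor of Rab7, 21.1 and 6.08 against 0 and 0. Dennd2a, of the DENN family of exchange factors, had 3.63 and 3.59 FPKM against 0 and 0. For these 4 genes the groups did not overlap, and how many of all genes do the same was not counted. Rabggta, a subunit of the enzyme that attaches the lipid chains to the cysteines shown above, had 37.1 and 10.6 FPKM against 0 and 0 (4.39 ± 1.15, adjusted p = 0.013, limma), while its partner Rabggtb and the escort protein Chm were listed at 0 in these 4 libraries. Gdi2, which extracts Rabs from membranes, was in both groups, at 63.4 and 14.3 against 38.4 and 6.96 FPKM (log2 difference 0.83 ± 1.31, adjusted p = 0.9, limma).

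In vitro run-off lets ribosomes that are elongating finish and leave the mRNA before the pull-down. The adult libraries with run-off were therefore compared with those without, to see which Rab mRNAs lost reads. There was 1 library for each, so no test is possible. The intervals given are exact conditional binomial 95% intervals that cover counting error only. No Cre-negative SC was among these libraries, so SC reads from axons and from background cannot be told apart here. In the developmental series no Rab gene was called between the adult Cre-positive and Cre-negative SC (limma). In the SC, 32 Rab genes had a read, and run-off lowered the count of 29 (90.6%), beside 84.9% of all genes with a read. In the retina it was 38 of 40 (95%), beside 92.1% of all genes. No read was left for 18 of the 32 Rab genes in the SC and 27 of the 40 in the retina, where all genes gave 52.9% and 60.5%. Rab reads fell from 15144 to 524 in the SC and from 8316 to 444 in the retina, leaving 3.46% and 5.34%, and the library totals fell from 3262914 to 349395 and from 4686284 to 315009, leaving 10.7% and 6.72%. The authors adjusted library input to the amount of cDNA, and reads were therefore compared without scaling.

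The 4 synaptic and secretory Rabs with reads in the SC held 8611 of the Rab reads without run-off. Rab27a went from 5955 to 274 reads in the SC, leaving 4.6% (interval 4.06 to 5.19%), and from 3917 to 282 in the retina, leaving 7.2% (6.36 to 8.13%). Rab3b went from 1881 to 7 reads in the SC (0.372%, interval 0.149 to 0.768%) and from 452 to 4 in the retina. Rab3c, the third Rab3 of synaptic vesicles, went from 628 to 1 in the SC (0.159%, 0.00403 to 0.89%), and from 61 to 0 in the retina. Rab3a stood apart, with 147 reads without and 41 with run-off in the SC, or 27.9% left (19.2 to 39.7%), above the 10.7% of the whole library. It went from 152 to 11 in the retina, and scaled to the library totals (CPM) it was higher with run-off, at 45.1 without and 117 with it in the SC and 32.4 and 34.9 in the retina.

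Among the endosomal and Golgi Rabs, few reads were left for the most abundant members in the SC. Rab14, a Rab of recycling endosomes and the trans-Golgi, went from 1508 reads to 0 in the SC, with an upper limit of 0.245% left, and from 338 to 1 in the retina. Rab1 went from 794 to 18 in the SC (2.27%, 1.34 to 3.61%) and from 1325 to 62 in the retina (4.68%, 3.57 to 6.04%). Rab6b went from 588 to 4 and Rab11b from 489 to 3 in the SC. Rab28, of the ciliary and other Rabs, went from 449 to 0 there. It was listed at 0 in every adult SC library of the developmental series. For Rab11b the intervals of SC and retina did not overlap, with 0.613% left in the SC (0.126 to 1.8%) and 5.54% in the retina (3.18 to 9.01%). The whole interval lay below the ratio of the library totals for 23 of the 32 Rab genes in the SC and 11 of the 40 in the retina, beside 41.7% and 17.6% of all genes with a read. Intervals are narrower for genes with more reads.

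Only 3 Rab genes had more reads with run-off in the SC. Rab4b had 0 reads without and 123 with run-off, Rab43 had 0 and 26, and Rab9b had 17 and 23. In the retina Rab9, a late endosomal Rab, had 12 and 40 reads, and Rab3d had 0 and 1. Scaled in this way, Rab27a, Rab33b and Rab3a in the retina and Rab3a in the SC also had more with run-off, which left 28 of 32 Rab genes lower in the SC and 35 of 40 in the retina, beside 72.3% and 71.9% of all genes. Rab8a, Rab5a and Rab7 had no read in either SC library, which allows up to 3 reads in each.

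**Figure D4:**
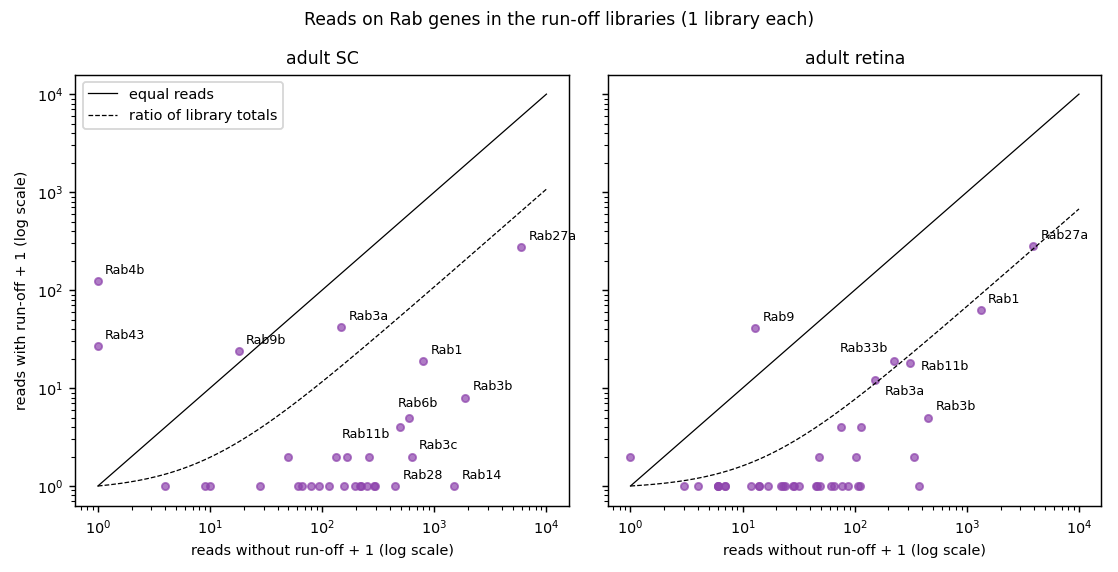
Reads on each Rab gene with run-off (vertical) against those without (horizontal) in the adult SC and retina, with 1 added and both axes on a log scale. The solid line marks equal reads and the dashed line the ratio of the library totals. Most Rab genes lie below the dashed line in the SC, where Rab4b, Rab43 and Rab9b lie above the solid line, and Rab27a lies on the dashed line in the retina.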

How the data were processed

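Axon-TRAP was sequenced in 24 libraries, and run-off in 4. Per the labels and the study's methods, reads were mapped to mm10 with TopHat 2.0.12. The values the authors deposited are FPKM, made with Cufflinks 2.2.1, and, after run-off and its control, counts of reads on genes by HTSeq 0.6.1p1. Oligo(dT)-primed cDNA was amplified by PCR, and intervals on counts therefore cover counting error only. The study used NOISeq on counts, which was not run here.

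The Rab genes, role groups, regulators and markers were chosen with earlier results of these data known. log2(FPKM + 1) was fitted with limma 3.58.1 (statmod 1.5.0, R 4.3.3), with the prior variance following mean level (trend) and robust, on genes at 1 FPKM or more in at least 2 libraries of the fit. The fits took the 16 SC libraries, the 8 retina libraries, or the 16 Cre-positive SC and retina libraries, with 1 mean per group. Tests are two-sided, with p adjusted over all genes of a contrast (Benjamini-Hochberg, 0.05). The SC fit was tested on simulated data with the spread of the P0.5 libraries. The wider spread of the other stages was not simulated. In all, 4 genes with missing entries, none of them a Rab gene, were left out. Library depth was estimated from FPKM × transcript length of 3514 single-transcript genes, as the unit that puts low values closest to whole numbers, where the peak was at least 4 standard units. Replicates are pools of tissue that the study calls biological. Alternatives were 0.1 FPKM added, no filter, median-ratio scaling, a replicate block, a fit to 1 stage and each library left out. Rab genes are named if they passed in a contrast of Cre or stage, were among the 3 highest of a group or the 8 with most reads in the SC without run-off, or are textbook markers. Regulators are named if among the 5 smallest adjusted p at P0.5 or part of prenylation and recycling (Gdi2, Chm, Rabggta, Rabggtb), except for items that are not reported here. Python 3.11.15, pandas 2.3.3, numpy 2.4.6, scipy 1.17.1 and matplotlib 3.10.9 were used.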

Additional observations from a re-analysis of the deposited data

Results flagged for a closer look

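The change over a stage interval differed between the Cre-positive and Cre-negative SC for 3 Rab genes, by the interaction of Cre and stage in limma. From E17.5 to P0.5 the difference in log2 change was 5.87 for Rab1b, 3.89 for Rab11a and 2.35 for Rab43, and from P0.5 to P7.5 it was -5.87 for Rab1b and -5.13 for Rab11a. The adjusted p values were 0.0029, 0.046, 0.045, 0.0033 and 0.015, and 23.9% and 18.7% of all genes tested were called in the same directions. Rab1b was past the threshold in 11 of the 12 other analyses of each interval, Rab11a in 4 and 8 of 12, and Rab43, which entered the test only through the P0.5 Cre-positive libraries, in 2 of 10.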

How the results depend on the processing

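All 37 calls for single Rab genes kept their direction in every analysis that could test them, but 28 repeats with another setting (136 stayed) and 84 with a library left out (74 stayed) were no longer past the threshold. At P0.5 the number of Rab genes higher in Cre-positive than in Cre-negative SC was 5, and it was 10 in the fit to the 4 libraries of the stage; the 1 lower call became 0 with 0.1 FPKM added. The 10 Rab genes higher than in retina became 4 with 0.1 FPKM added, and 1 was lower there without the filter on low values. Without that filter 0 fell from E17.5 to P0.5 in Cre-positive SC. Median-ratio scaling moved the median of all genes by 0.38 and -0.29 (log2) for retina up to P0.5 and P7.5 and by -0.11 for the first interaction, where Rab43 lost its call, as Rab6b did against retina. With a replicate block, 8 Rab genes were higher in Cre-positive SC at P0.5 (Rab27a, Rab6b and Rab5c were added), and the other counts stayed within 1.5 times. The study bred Cre-positive and Cre-negative mice as littermates, but no label says that replicate numbers pair the samples. Deviations of the same number in Cre-positive and Cre-negative SC correlated at 0.32 to 0.43 up to P7.5 and at 0.059 in the adult. The causes were not tested.

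With a library left out, the numbers higher and lower in Cre-positive against Cre-negative SC were 0 to 1 and 0 to 3 at E17.5, 2 to 3 and 0 to 1 at P0.5, and 0 to 1 and 0 to 1 in the adult. Between stages of Cre-positive SC they were 1 to 6 and 0 to 2 up to P0.5, 2 to 6 lower at P7.5, and 0 to 1 higher in the adult. For the interactions they were 0 to 5 higher and 0 to 1 lower up to P0.5, 0 to 3 lower up to P7.5, and 0 to 1 in each direction in the adult. Against retina, 0 to 2 were higher at E17.5 and 2 to 5 at P0.5. A group left with 1 library is assumed to vary like the others. Without scaling, reads were fewer with run-off for 29 of 32 Rab genes in the SC and 38 of 40 in the retina, beside 84.9% and 92.1% of all genes. Scaled to the library totals, it was 28 and 35, beside 72.3% and 71.9%. With 1 library each, the spread of these shares is not known. With 2 replicates and discordant libraries outside P0.5, a missing call says little about those stages.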
